A study of Mus musculus with 7 samples.

Results

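The serpin family was examined in bulk RNA sequencing of whole liver from C57BL/6 mice. Its members were all genes of the count table whose mouse symbol is Serpin followed by a clade letter from a to i and a number, and they numbered 68 of the 37620 genes. Every mouse was fed a Western diet, a fat- and sugar-rich chow, over 30 weeks. They were divided by their bile acids into a high total bile acid group (H-TBA, 4 libraries) and a low total bile acid group (L-TBA, 3 libraries), and the labels name no genetic change or further agent for either. The question addressed is which transcripts follow the bile acid status of mice with diet-induced fatty liver, against a series title on cholemia, a raised bile acid level in blood, and liver cancer. Neither sex nor age is labelled, and since it is not stated that every library is another animal, p-values refer only to the spread among libraries, which may be technical.

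Most serpins are protease inhibitors that work as single-use traps. An exposed stretch near the carboxy-terminal end, the reactive centre loop, is cut by the protease, which is then held in a covalent complex that receptors clear from the blood. The liver secretes most of the plasma serpins, including antitrypsin, antichymotrypsin, antithrombin and the inhibitors of plasmin and of the first complement component. Other members inhibit nothing and carry hormones or fold collagen, and clade B members stay largely inside cells. In the mouse the antitrypsin and antichymotrypsin genes have been duplicated into the Serpina1 and Serpina3 groups of near copies.

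Of the 68 members, 11 had no count in any library, which allows a level of up to 0.0383 CPM (counts scaled to a common library size; 3 counts over all libraries, for counting error only). Another 23 had counts too low to be tested, and 34 passed the filter on low counts. Of these 34, edgeR's quasi-likelihood test found 3 higher and 6 lower in H-TBA at an adjusted p of 0.05. That is 26.5% of the tested members, against 23.9% of all 15249 tested genes (13.1% higher and 10.7% lower). The share of called members was therefore near the background, and the family as a whole did not stand out. The median log2 fold change was 0.04 over the tested members and 0.00 over all tested genes. H-TBA and L-TBA values were fully separate for 11 of the 34 members (32.4%), against 33.5% of all tested genes. Scaling by library totals in place of TMM moved the median of all genes to 0.16 and gave 10 higher and 6 lower members, the added ones being Serpina1a, Serpina1c, Serpina3e-ps, Serpina3k, Serpina4-ps1, Serpinf1 and Serpinh1.

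Lower in H-TBA were the thyroxine carrier Serpina7, the corticosteroid carrier Serpina6, vaspin (Serpina12), the protein Z-dependent inhibitor Serpina10 and the antichymotrypsin paralogs Serpina3g and Serpina3n. Higher were the antitrypsin paralog Serpina1e, protease nexin 1 (Serpine2) and the intracellular inhibitor Serpinb6a. All 6 lower members lie in clade A, which holds 20 of the 34 tested members. There 7 of 20 (35%) were called, and in clade B 1 of 5 (20%), against 23.9% of all tested genes. The clades hold few tested genes, and no difference between them was tested. None of the 7 tested members of clades C, D, F, G, H and I passed edgeR's test, while 1 of them (Serpinh1) had an unadjusted p under 0.05 and was called by DESeq2 and limma-voom.

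**Figure D1:**
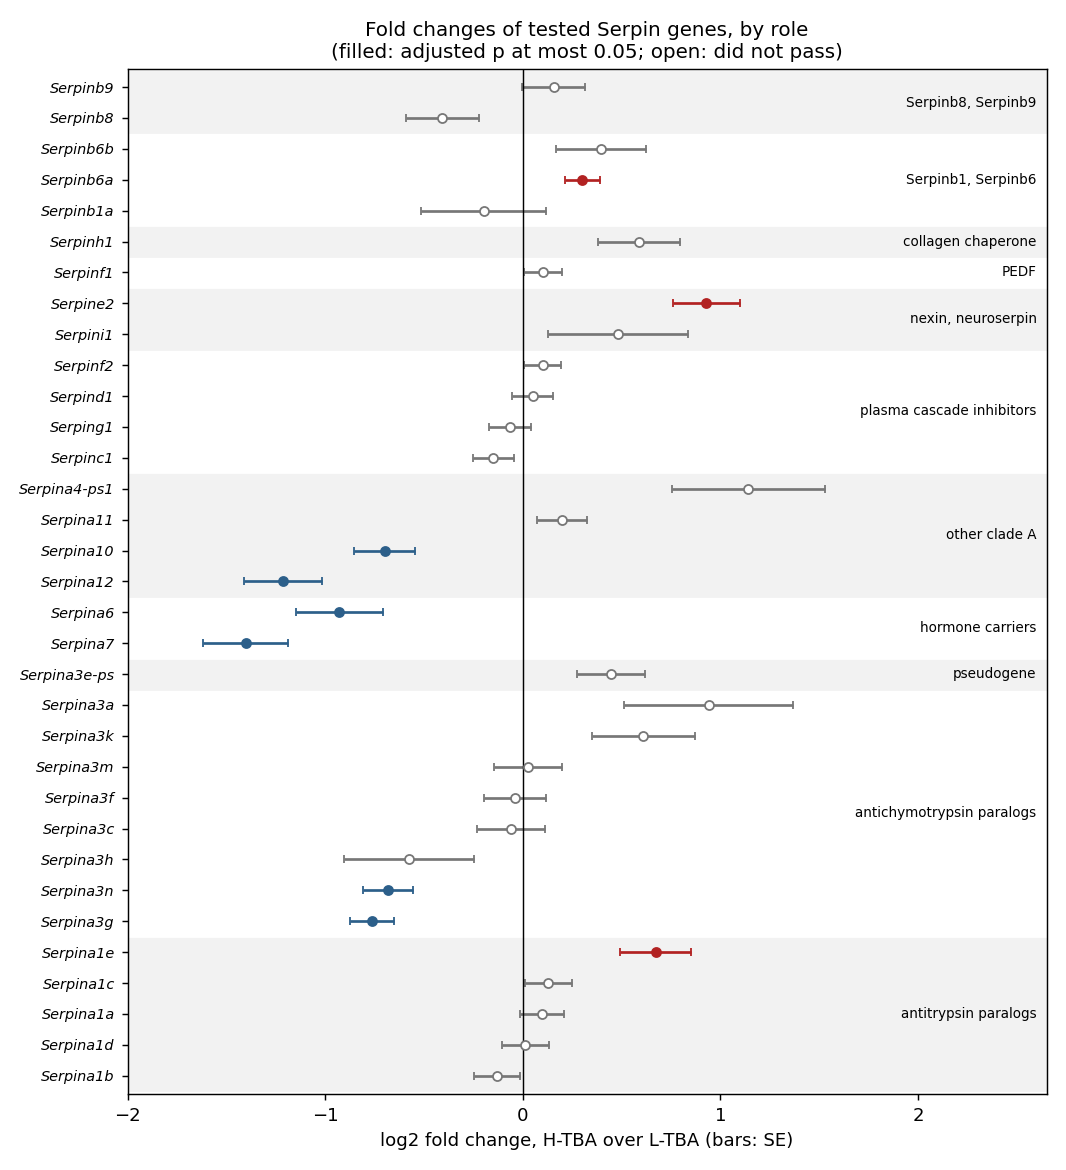
log2 fold change (H-TBA over L-TBA, x axis) with its SE for 33 tested serpin genes (y axis), grouped by role, with filled symbols for the 9 that passed the test. Both hormone carriers lie on the lower side, at -0.93 and -1.40, while the 4 plasma cascade inhibitors lie between -0.15 and 0.10.

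Libraries held between 9996990 and 12152613 counts. H-TBA 1 lay nearest to L-TBA among the H-TBA libraries on the first principal component, at -6.48 against -35.9 to -27.3 for the others and 29.4 to 35.9 for L-TBA. Markers of bile duct cells rose in H-TBA for 12 of 12 genes, with a summed level of 477 to 745 CPM in L-TBA and 1009.5 to 1934 CPM in H-TBA. The bile duct keratin Krt19 rose from 6.04 ± 1.81 to 49.6 ± 17.9 CPM. Of 12 markers of stellate cells and fibroblasts 5 rose and 1 fell (summed level 591 to 1043 against 901 to 1013 CPM). Mesothelial markers had 3 higher of 4 (7.60 to 11.1 against 19.9 to 24.8 CPM) and vascular endothelial markers 3 higher and 1 lower of 8 (151 to 195 against 157 to 232 CPM). Sinusoidal endothelial markers had 7 lower of 8 (231 to 267 against 161 to 188 CPM), macrophage and Kupffer cell markers 3 lower of 11 (549.9 to 766 against 330.2 to 416 CPM) and neutrophil markers 2 lower of 3 (14.4 to 19.5 against 9.22 to 10.9 CPM, with Ly6g at 0 counts in all libraries). Hepatocyte markers had 2 higher and 2 lower of 9, with a summed level of 68917 to 76614 CPM in L-TBA and 61418 to 69343 CPM in H-TBA. No tested marker passed edgeR's test for T and NK cells (0 of 6; 19.7 to 27.6 against 16.3 to 24.4 CPM) or B and plasma cells (0 of 5; 13.04 to 102 against 7.43 to 23.6 CPM), by DESeq2 and limma-voom also 0, with 0 and 2 at an unadjusted p under 0.05. In whole liver, fewer cells of a type and less RNA per cell cannot be told apart, and the part of these cell types in the results on serpins was not tested.

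The Serpina1 genes are mouse paralogs of the gene for antitrypsin, the main plasma inhibitor of neutrophil elastase. Which protease each paralog inhibits was not examined here. The coding sequences of Serpina1a to Serpina1e are 96.3% to 98.5% identical over 1239 bases in GENCODE M21. Over that length 86 positions differ between at least some of Serpina1a to Serpina1e, and 20 of them fall into a single window of 90 bases near the end of the coding sequence, bases 1103 to 1192. The window, found as the one with the most differing positions, is shown because it is where reads can best be told apart, and it lies in the part of serpins that holds the reactive centre loop. Capitals mark the positions that differ from Serpina1e, and in Serpina1e those that differ from any of the others.
Serpina1a: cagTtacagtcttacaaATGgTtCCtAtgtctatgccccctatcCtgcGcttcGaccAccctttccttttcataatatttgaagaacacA
Serpina1b: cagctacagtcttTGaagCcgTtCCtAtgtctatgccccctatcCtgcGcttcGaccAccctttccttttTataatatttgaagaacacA
Serpina1c: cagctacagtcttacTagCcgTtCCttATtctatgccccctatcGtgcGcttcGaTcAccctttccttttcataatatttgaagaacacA
Serpina1d: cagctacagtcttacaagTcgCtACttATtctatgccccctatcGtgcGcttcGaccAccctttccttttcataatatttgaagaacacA
Serpina1e: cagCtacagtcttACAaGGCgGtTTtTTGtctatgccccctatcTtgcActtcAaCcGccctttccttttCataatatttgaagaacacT
Serpina1a, Serpina1b and Serpina1c each differ from Serpina1e at 13 of these 90 bases and Serpina1d at 11.

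How far the paralogs share sequence limits what their counts can say. Of the stretches of 50 bases in its annotated transcripts, Serpina1c shares 79.3% with another gene, Serpina1a 57.6%, Serpina1d 50.9%, Serpina1e 34.6% and Serpina1b 29.5%. With stretches of 100 bases the shares are 69.3%, 42.8%, 29.3%, 14.4% and 14.8%. The way reads that fit several genes were counted is not given in the sources used here, so levels within the Serpina1 group are uncertain.

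The Serpina1 paralogs and Serpina3k were the most abundant serpins per length. Serpina1b stood at 2734 ± 255 CPM per kb of transcript (SD, n = 3) in L-TBA and 2498 ± 209 (SD, n = 4) in H-TBA, followed by Serpina1c and Serpina1a, whose means lay between 1806 and 1978 in both groups. Serpina1d was at 1232 ± 128 and 1242 ± 119.5 CPM per kb, and Serpina1e was lower, at 531 ± 152 and 847 ± 110.4. In Serpina1c and Serpina1a the levels were closer to each other than the spread between libraries. Serpina3k was at 1331 ± 515 in L-TBA, between Serpina1a and Serpina1d, and at 2032 ± 529.7 in H-TBA, where its mean was next to that of Serpina1b but within its spread of Serpina1c and Serpina1a. The C1 inhibitor Serping1, the plasmin inhibitor Serpinf2 and antithrombin (Serpinc1) followed, each between 238 and 411 CPM per kb, with Serpina3n above Serpinf2 and Serpinc1 in L-TBA (297) and below both in H-TBA (185). The transcript model used for Serpinc1 is 4970 bases long, longer than for any other tested member, which lowers its value per length, and 33.1% of its 50-base stretches lie in Zbtb37 on the opposite strand.

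**Figure D2:**
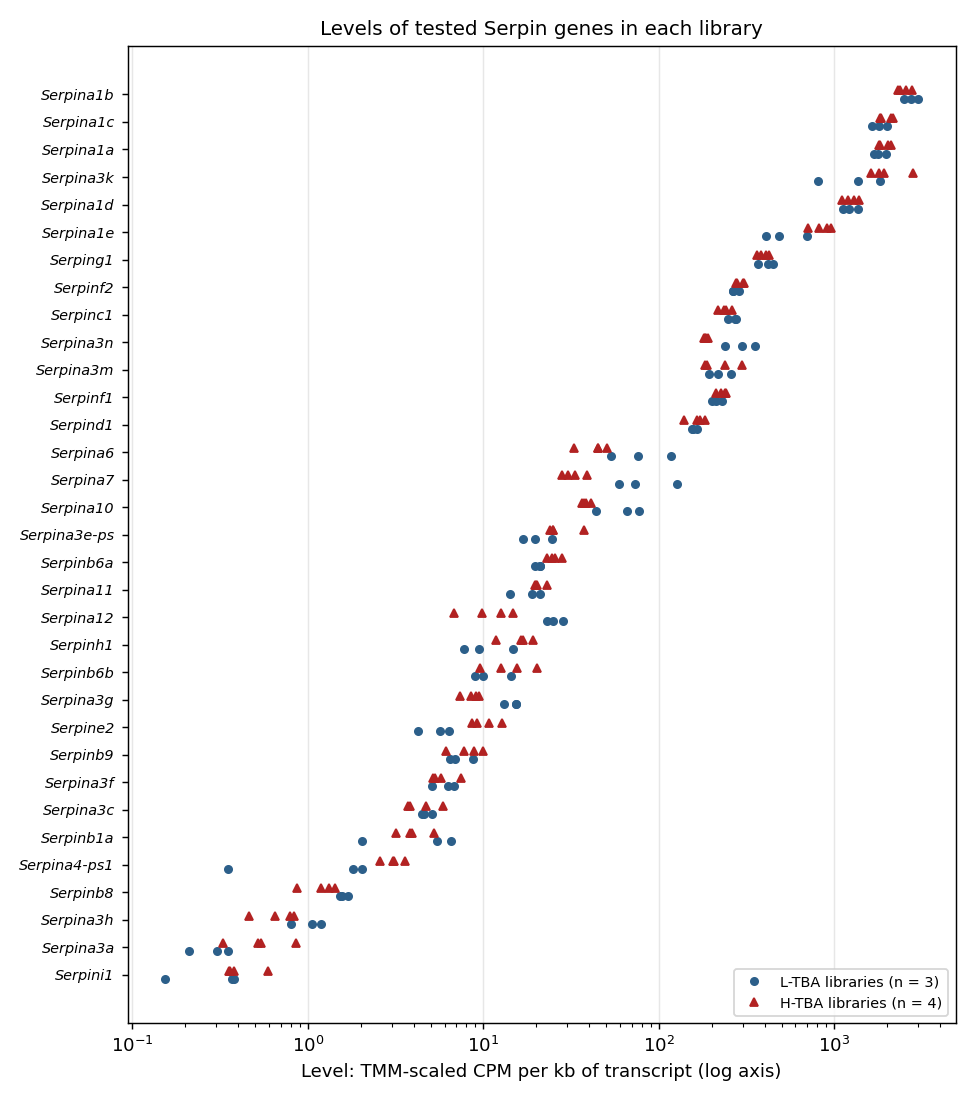
Levels of 33 tested serpin genes (y axis, ordered by mean) as TMM-scaled CPM per kb of transcript on a log axis, with 1 symbol per library. The family spans from Serpina1b, with means of 2734 and 2498, to Serpini1, with 0.30 and 0.42 CPM per kb, and for Serpina7, Serpina12 and Serpina3g the L-TBA circles lie to the right of the H-TBA triangles.

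Serpina1e (ENSMUSG00000072849) was the single antitrypsin paralog that passed the test. It was at 761, 643 and 1105 CPM in L-TBA 1 to 3 and at 1427, 1505, 1293 and 1108 CPM in H-TBA 1 to 4. Every H-TBA library was above every L-TBA library, but L-TBA 3 and H-TBA 4 were all but equal. Its log2 fold change was 0.67 ± 0.18 (SE; adjusted p = 0.0187), and leaving out H-TBA replicate 2 or L-TBA replicate 1 or 2 took the call away (adjusted p = 0.0566, 0.0814 and 0.0761; all alternatives lay between 0.00116 and 0.0814).

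The other antitrypsin paralogs did not pass and their groups overlapped. Serpina1b was at 3812, 3456 and 4166 CPM in L-TBA and at 3845, 3584, 3211 and 3287 CPM in H-TBA, a log2 fold change of -0.13 ± 0.12 (adjusted p = 0.461). Serpina1a, Serpina1c and Serpina1d were at 0.10 ± 0.11, 0.13 ± 0.12 and 0.01 ± 0.12 (adjusted p = 0.568, 0.476 and 0.955). Serpina1a was at 2407, 2295 and 2666 CPM in L-TBA and at 2733, 2844, 2480.1 and 2455 CPM in H-TBA. Among all libraries, L-TBA 2 was the lowest for Serpina1a, Serpina1c and Serpina1e. Serpina1c was at 2433, 2229 and 2728 CPM in L-TBA and at 2869.6, 2919, 2463 and 2515 CPM in H-TBA. Serpina1d was at 1688, 1556 and 1908 CPM and at 1919.5, 1806, 1537 and 1665 CPM, so that each group covered much of the range of the other. The direction for Serpina1b turned with library totals (0.02), and those totals called Serpina1a and Serpina1c higher, at 0.25 and 0.28 (adjusted p = 0.0425 and 0.0344); that of Serpina1d also turned without 1 of several libraries.

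Summed over Serpina1a to Serpina1e, the level was 11285 ± 1208 CPM (SD, n = 3) in L-TBA and 11867 ± 994 CPM (SD, n = 4) in H-TBA, a ratio of 1.05, and the difference was smaller than the SD of either group. What differed was the make-up of the sum. Serpina1e held 6.86%, 6.32% and 8.79% of it in L-TBA 1 to 3 and 11.2%, 11.9%, 11.8% and 10.05% in H-TBA 1 to 4. Serpina1b held 34.3%, 33.95% and 33.1% in L-TBA and 30.1%, 28.3%, 29.2% and 29.8% in H-TBA. In both shares the groups did not overlap, and the shares rest on the same shared reads as the counts, so no test was made of them.

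**Figure D3:**
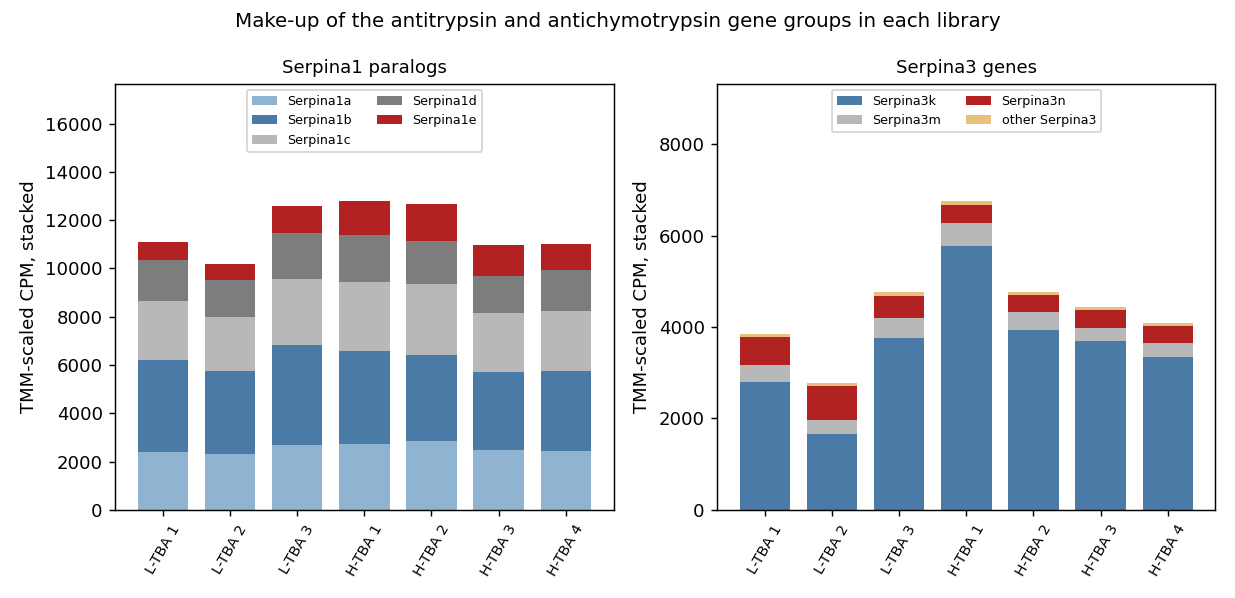
Stacked TMM-scaled CPM (y axis) of the Serpina1 paralogs (left) and the Serpina3 genes (right) in each of the 7 libraries (x axis). The Serpina1e segment holds between 6.32% and 8.79% of the Serpina1 sum in L-TBA and between 10.05% and 11.9% in H-TBA, and Serpina3k makes up most of the Serpina3 sum in all 7 libraries.

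The promoter windows of Serpina1a to Serpina1e are 91.7% to 98.4% identical between pairs. The RefSeq promoter windows (build GRCm38.p6, 250 bases before to 50 after the gene's start, read 5′ to 3′ on the gene's strand) of Serpina1b and Serpina1e are the most alike pair, with 98.4% identity over 248 aligned bases. They are shown because Serpina1e was called and Serpina1b was not. Capitals mark GTTAAT, a half-site of the hepatocyte factor HNF1, searched on both strands.
Serpina1b, chr12:103738140-103738439, minus strand: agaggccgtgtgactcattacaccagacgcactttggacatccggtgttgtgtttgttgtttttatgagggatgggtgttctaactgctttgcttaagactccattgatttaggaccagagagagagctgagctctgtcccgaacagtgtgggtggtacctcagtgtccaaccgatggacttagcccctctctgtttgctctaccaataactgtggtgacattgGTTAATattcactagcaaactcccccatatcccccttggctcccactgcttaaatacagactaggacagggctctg
Serpina1e, chr12:103956848-103957147, minus strand: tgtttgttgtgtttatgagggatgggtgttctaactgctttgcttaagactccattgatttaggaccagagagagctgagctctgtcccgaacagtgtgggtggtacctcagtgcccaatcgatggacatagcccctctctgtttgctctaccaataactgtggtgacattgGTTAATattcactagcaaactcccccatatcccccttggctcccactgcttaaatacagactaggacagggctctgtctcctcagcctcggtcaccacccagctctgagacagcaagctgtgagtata
All 5 of Serpina1a to Serpina1e have a single GTTAAT in the window, against 7.10% of 32851 promoter windows and 12 of the 63 windows (19.0%) of the 54 serpin genes in the table. The 5 windows are near copies of each other and are themselves among the 63, so they do not count as separate matches. The match is a description of these letters and not a measured binding site.

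The Serpina3 genes descend from the gene for antichymotrypsin, an acute phase inhibitor of cathepsin G and mast cell chymase. Of 11 members with no pseudogene mark in their symbol (Serpina3h is annotated as a transcribed pseudogene all the same) 8 were tested, and 2 fell and 0 rose in edgeR's test (DESeq2 and limma-voom gave the same counts, and 1 was higher at an unadjusted p under 0.05). The called share of 25% was near the 23.9% of all tested genes. The Serpina3 genes share less sequence than the antitrypsin genes: 6.90% of the 50-base stretches of Serpina3n, 15.5% of those of Serpina3g, 14.0% of Serpina3k and 19.1% of Serpina3m occur in another gene. Serpina3k and Serpina3m also overlap in their annotated exons on the same strand.

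Serpina3n (ENSMUSG00000021091), the acute phase member of the group that also inhibits granzyme B, was at 614, 732 and 490.2 CPM in L-TBA and at 393, 379, 383 and 371 CPM in H-TBA. The H-TBA libraries were tightly grouped and all below L-TBA. Its log2 fold change was -0.68 ± 0.13 (adjusted p = 0.0029). Serpina3g (ENSMUSG00000041481), an inhibitor of cysteine cathepsins known from blood cells, was at 23.7, 27.6 and 27.5 CPM in L-TBA and at 15.4, 17.0, 13.2 and 16.4 CPM in H-TBA. Its groups were likewise apart, at -0.76 ± 0.11 (adjusted p = 0.000878). Both calls held in each of the 15 alternatives.

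Serpina3k, an inhibitor of tissue kallikrein, was the most abundant transcript of the group and had its largest SD in CPM. It was at 2801, 1650.1 and 3765 CPM in L-TBA and at 5773, 3926, 3683 and 3335 CPM in H-TBA. H-TBA 1 was the highest of all libraries and L-TBA 2 the lowest, while L-TBA 3 lay within the range of H-TBA. The log2 fold change of 0.61 ± 0.26 did not pass (adjusted p = 0.113). It passed with library totals (0.76, adjusted p = 0.0337) and when L-TBA replicate 3 was left out (0.91, adjusted p = 0.0357), the alternatives spanning 0.0337 to 0.327.

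Serpina3n and Serpina3k thus took different shares of the Serpina3 sum. Serpina3k held 72.8%, 59.4% and 78.9% in L-TBA and 85.4%, 82.3%, 83.0% and 81.6% in H-TBA. Serpina3n held 15.9%, 26.4% and 10.3% in L-TBA and 5.82%, 7.94%, 8.62% and 9.07% in H-TBA. The groups did not overlap in either share, with L-TBA 3 nearest to H-TBA in both. Both are parts of the same sum, so the shares depend on each other, and the level of Serpina3k itself overlapped between the groups. No test was made of the shares. The sum itself was 3799 ± 998 CPM (SD, n = 3) in L-TBA and 5013 ± 1195 CPM (SD, n = 4) in H-TBA, and the libraries of the groups overlapped.

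The promoter windows of the Serpina3 genes that fell are shown for comparison, with capitals for TTCNNNGAA, the palindrome bound by STAT factors of the acute phase response. TTGCNNAA, a C/EBP-type sequence, was also searched, both on both strands.
Serpina3g, chr12:104235897-104236196, plus strand: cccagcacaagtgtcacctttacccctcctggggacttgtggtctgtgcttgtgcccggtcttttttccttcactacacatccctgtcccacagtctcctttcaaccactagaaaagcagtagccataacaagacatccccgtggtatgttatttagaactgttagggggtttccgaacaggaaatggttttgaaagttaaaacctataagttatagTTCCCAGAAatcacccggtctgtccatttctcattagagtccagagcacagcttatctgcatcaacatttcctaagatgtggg
Serpina3n, chr12:104406458-104406757, plus strand: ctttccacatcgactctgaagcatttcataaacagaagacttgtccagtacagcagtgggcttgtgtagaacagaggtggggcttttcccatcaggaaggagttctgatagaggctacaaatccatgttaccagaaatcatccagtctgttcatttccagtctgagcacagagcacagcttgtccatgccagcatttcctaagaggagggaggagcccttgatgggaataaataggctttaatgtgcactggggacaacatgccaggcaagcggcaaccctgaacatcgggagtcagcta
Serpina3g has 1 match to TTCNNNGAA and Serpina3n has 0, while 8.30% of all windows and 11 of the 63 serpin windows (17.5%) hold one. Neither has TTGCNNAA, which 10.8% of all windows and 17 of the 63 serpin windows (27.0%) hold. No match says only that these letters are not in this window.

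The remaining tested Serpina3 genes did not pass. Serpina3m was at 0.03 ± 0.17, Serpina3c at -0.06 ± 0.17 and Serpina3f at -0.04 ± 0.16 on the log2 fold change scale, with directions that turned under some alternatives, library totals among them for Serpina3c and Serpina3f. Serpina3m was at 359, 319.9 and 429 CPM in L-TBA and at 495, 392.3, 304 and 312 CPM in H-TBA, with overlapping groups. Serpina3a and Serpina3h, both near 1 CPM, were at 0.94 ± 0.43 (adjusted p = 0.137) and -0.58 ± 0.33 (adjusted p = 0.23). Serpina3e-ps, annotated as a pseudogene, nevertheless had 20.7 to 30.4 CPM in L-TBA and 29.5 to 46.0 CPM in H-TBA, and 21.6% of its 50-base stretches occur in another gene, Serpina3g first among them. Its log2 fold change was 0.45 ± 0.17 (adjusted p = 0.085), and it was called with library totals, with no filter and without L-TBA replicate 3 (adjusted p = 0.0161, 0.0432 and 0.0469, within 0.0161 to 0.27). Serpina3b, Serpina3i and Serpina3j and the pseudogenes Serpina3d-ps and Serpina3l-ps were too low to be tested, with at most 26 counts over a group.

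Both hormone carriers fell. They have the serpin fold but bind thyroid hormone or glucocorticoids in place of a protease. Serpina7 (ENSMUSG00000031271), which encodes thyroxine-binding globulin, was at 169, 296 and 138 CPM in L-TBA and at 91.1, 65.5, 70.5 and 77.2 CPM in H-TBA. All H-TBA libraries were below all L-TBA libraries, with L-TBA 2 far above the rest. The log2 fold change was -1.40 ± 0.22 (adjusted p = 0.00115), the largest among the 34 tested members in size, and it ran from -1.62 to -1.02 over the alternatives.

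Serpina6 (ENSMUSG00000060807), which encodes corticosteroid-binding globulin, was at 188, 122 and 85.2 CPM in L-TBA and at 72.6, 80.8, 52.4 and 71.8 CPM in H-TBA. The groups did not overlap, but L-TBA 3 lay close to H-TBA 2. The log2 fold change was -0.93 ± 0.22 (adjusted p = 0.0112), and it was -0.59 without L-TBA replicate 1, where it still passed (adjusted p = 0.0461, the highest of the alternatives, which began at 0.000321).

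Among the other clade A genes, Serpina12 and Serpina10 fell. Serpina12 (ENSMUSG00000041567) encodes vaspin, a secreted inhibitor of kallikrein 7 first described in fat tissue. It was at 85.0, 105 and 92.0 CPM in L-TBA and at 54.3, 25.2, 46.4 and 36.005 CPM in H-TBA. The groups were well apart, at -1.21 ± 0.20 (adjusted p = 0.0015), and H-TBA 1 was the H-TBA library nearest to L-TBA.

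Serpina10 (ENSMUSG00000061947), the inhibitor of coagulation factor Xa that needs protein Z, was at 229, 271 and 152 CPM in L-TBA and at 143, 128, 131 and 135 CPM in H-TBA. H-TBA was again the narrower group, and L-TBA 3 lay just above it. The log2 fold change was -0.70 ± 0.16 (adjusted p = 0.0078). Its cofactor gene Proz, chosen after the values were seen, fell by 0.41 on the log2 scale, from 181 ± 9.59 to 137 ± 18.3 CPM (adjusted p = 0.018). Leaving out H-TBA replicate 4 or L-TBA replicate 2 ended the Proz call (adjusted p = 0.0589 and 0.0697, within 0.00206 to 0.093).

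Serpina11, a liver-secreted member of unknown target, was at 0.20 ± 0.13 (adjusted p = 0.288), and 35.7% of its 50-base stretches lie in the overlapping gene Gm28577. Serpina4-ps1, annotated as a pseudogene in place of kallistatin, was at 2.33, 0.449 and 2.604 CPM in L-TBA and at 4.58, 3.32, 3.90 and 3.96 CPM in H-TBA. Its groups did not overlap, and its log2 fold change of 1.14 ± 0.39 just missed the threshold (adjusted p = 0.054). It was called by DESeq2, limma-voom and library totals, without the filter and without L-TBA replicate 3 (adjusted p = 0.0242, 0.0364, 0.0337, 0.0239 and 0.0424, the least favourable alternative giving 0.109).

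In the RefSeq gene order, the 28 clade A genes of the antitrypsin locus start with Serpina10 and Serpina6, which both fell. The Serpina1 paralogs follow, with Serpina1e as the last of them, then Serpina12, and Serpina3n comes last. The called genes of the locus are thus Serpina10, Serpina6, Serpina1e, Serpina12, Serpina3g and Serpina3n in this order, with uncalled or untested genes between most of them. Serpina7 lies outside it.

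**Figure D4:**
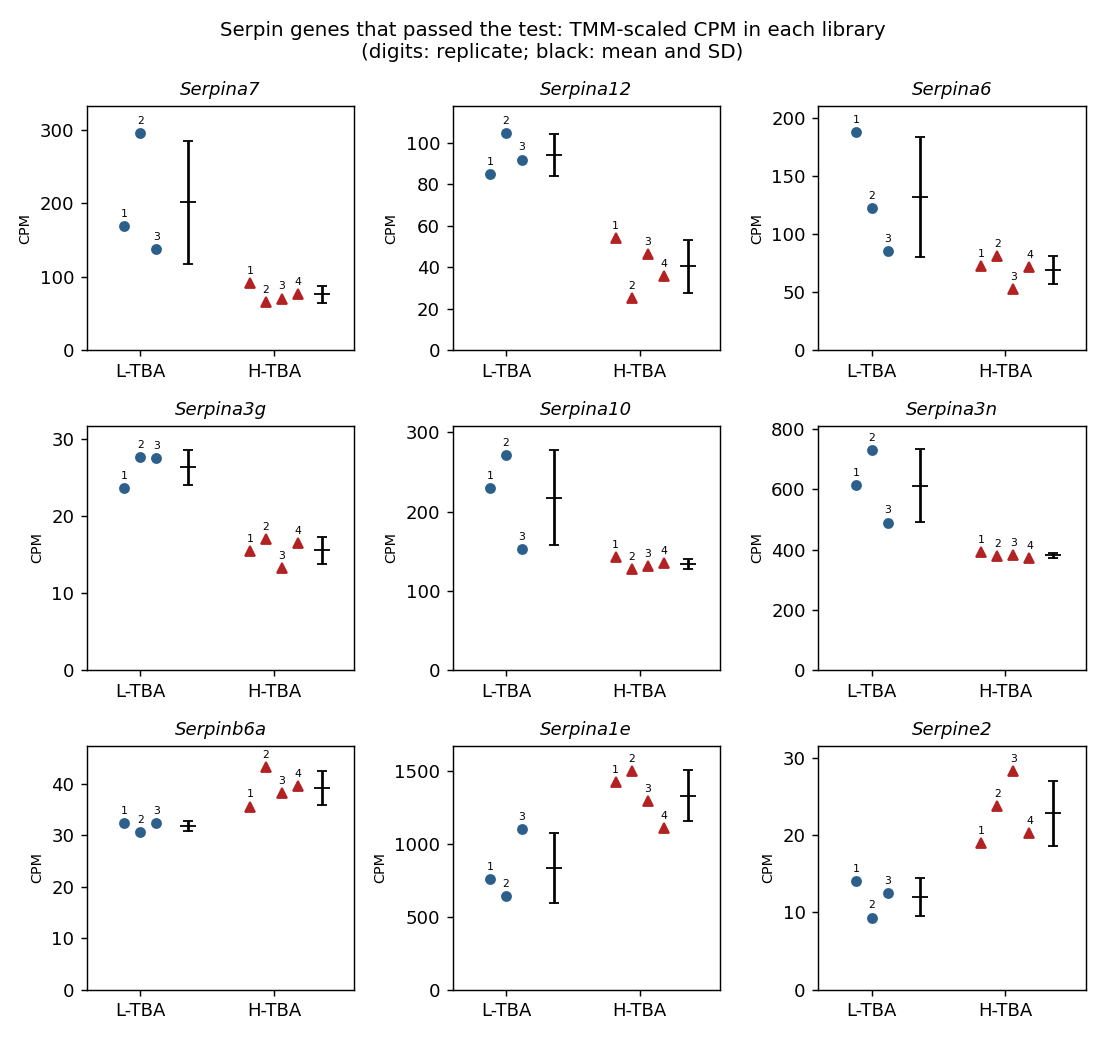
TMM-scaled CPM (y axis from 0) in each L-TBA and H-TBA library for the 9 serpin genes that passed the test, with the mean and SD in black and the replicate number above each point. In each panel the libraries of the groups are separate, and the gap is narrowest for Serpina1e, where L-TBA 3 is at 1105 and H-TBA 4 at 1108 CPM.

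The inhibitors that hold the plasma cascades in check did not pass: edgeR, DESeq2 and limma-voom each called 0 of 4 tested genes, and 0 had an unadjusted p under 0.05. Serpinc1 encodes antithrombin, the main inhibitor of thrombin and factor Xa, and was at 1235, 1348 and 1359 CPM in L-TBA and at 1294, 1170.5, 1074 and 1199 CPM in H-TBA (log2 fold change -0.15 ± 0.10, adjusted p = 0.326). Its groups overlapped only through H-TBA 1. Serpind1, the thrombin inhibitor heparin cofactor II, was at 0.05 ± 0.11, the antiplasmin gene Serpinf2 at 0.10 ± 0.09 and the C1 inhibitor gene Serping1 at -0.06 ± 0.11. The directions for Serpinc1 and Serping1 turned with library totals. Serpinf2 was at 573, 624 and 572 CPM in L-TBA and at 599.7, 667, 653 and 609 CPM in H-TBA. Serping1 was at 739, 794 and 648 CPM in L-TBA and at 721, 747, 639 and 679 CPM in H-TBA. In both genes the libraries of the groups overlapped, and the log2 fold changes of all 4 inhibitors lay between -0.15 and 0.10. Serpinf1, the pigment epithelium-derived factor, a secreted non-inhibitory serpin that restrains blood vessel growth, was at 0.10 ± 0.10 (adjusted p = 0.476), and at 0.26 with a call with library totals (adjusted p = 0.0288, within 0.0288 to 0.773).

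Among the cell-surface and neuronal inhibitors, Serpine2 rose. Serpine2 (ENSMUSG00000026249) encodes protease nexin 1, a cell-surface inhibitor of thrombin, urokinase and plasmin made by mesenchymal cells among others. It was at 14.1, 9.33 and 12.5 CPM in L-TBA and at 19.0, 23.7, 28.3 and 20.2 CPM in H-TBA. All H-TBA libraries were above all L-TBA libraries, at a log2 fold change of 0.93 ± 0.17 (adjusted p = 0.00288), and the call held in each of the 15 alternatives. The level of 22.8 ± 4.18 CPM (SD, n = 4) in H-TBA stood beside a rise of 12 of 12 bile duct markers. Of 12 stellate cell and fibroblast markers 5 rose and 1 fell, and their summed level overlapped between the groups. Mesothelial markers had 3 higher of 4, and vascular endothelial markers 3 higher and 1 lower of 8. The part of any of these cells in the level of Serpine2 was not tested.

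Neuroserpin (Serpini1), a brain inhibitor of tissue plasminogen activator, was low, at 0.628 to 2.43 CPM, and did not pass (0.48 ± 0.35).

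Serpinh1 encodes HSP47, a chaperone of the endoplasmic reticulum that helps to fold collagen. It was at 33.4, 21.4 and 17.7 CPM in L-TBA and at 26.8, 37.0, 43.7 and 38.4 CPM in H-TBA. L-TBA 1 lay above H-TBA 1, so the groups overlapped, and the log2 fold change of 0.59 ± 0.21 did not pass (adjusted p = 0.06). It passed at 0.89 with L-TBA replicate 1 left out (adjusted p = 0.00901), and at 0.71 with H-TBA replicate 1 left out (adjusted p = 0.0128). DESeq2, limma-voom, library totals and no filter also called it (adjusted p = 0.033, 0.0357, 0.0389 and 0.0196), and the highest value of any alternative was 0.207. In the list of its collagen clients 6 of 14 genes rose and 0 fell, with a median log2 fold change of 0.34, where 13.1% of all tested genes rose and 10.7% fell. Their summed level was 1514 to 2027 CPM in L-TBA and 1759 to 2022 CPM in H-TBA, so the groups overlapped. Libraries of the groups were separate for 2 of the 14, Col6a1 and Col6a2, against 33.5% of all tested genes. Col6a1, Col6a2 and Col4a2 rose by 0.88, 1.06 and 0.83 on the log2 scale (adjusted p = 0.0009, 0.000903 and 0.016), and Col4a2 did not pass once L-TBA replicate 2 or 3 was dropped (adjusted p = 0.0649 and 0.0614, within 0.00111 to 0.0941).

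Clade B members lack a classical signal peptide and guard cells against their own or incoming proteases. Of 28 members, 8 had no count and 5 were tested. Serpinb6a (ENSMUSG00000060147), an inhibitor of trypsin-like proteases and cathepsin G, was at 32.4, 30.6 and 32.4 CPM in L-TBA and at 35.6, 43.3, 38.2 and 39.6 CPM in H-TBA. The groups did not overlap, and the rise was small, at 0.30 ± 0.09 on the log2 fold change scale (adjusted p = 0.0272). It no longer passed when H-TBA replicate 2 or 4 or any 1 of L-TBA replicates 1 to 3 was left out (adjusted p between 0.0618 and 0.103, all alternatives lying between 0.00756 and 0.129). Serpinb6a shares annotated exon sequence with Nqo2 and Ripk1 on the opposite strand, and 25.1% of its 50-base stretches occur in another gene. These neighbours moved the other way: Nqo2, at -0.30 ± 0.11, missed the threshold (adjusted p = 0.0661), except by limma-voom and without H-TBA replicate 1. Ripk1 fell by 0.35 (adjusted p = 0.0219), which did not hold with library totals or without H-TBA replicate 3 or any 1 L-TBA library (within 0.0183 to 0.2).

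The other tested clade B genes did not pass. Serpinb6b was at 0.39 ± 0.23, and at 0.55 with a call without H-TBA replicate 1 (adjusted p = 0.0479, the lowest of alternatives that reached 0.562). Serpinb9, the inhibitor of granzyme B that protects cells from killer lymphocytes, was at 23.2, 29.5 and 22.0 CPM in L-TBA and at 20.7, 26.2, 33.9 and 30.1 CPM in H-TBA (log2 fold change 0.16 ± 0.16, adjusted p = 0.522). All L-TBA libraries lay within the H-TBA range, while H-TBA 3 and H-TBA 4 were above every L-TBA library. Serpinb1a, the inhibitor of neutrophil elastase and proteinase 3, was at -0.20 ± 0.32, with L-TBA 1 at 3.89 CPM against 10.4 and 12.5 CPM in L-TBA 2 and 3. Serpinb8, an inhibitor of furin, was at 6.996, 7.18 and 7.71 CPM in L-TBA and at 5.42, 6.06, 3.98 and 6.55 CPM in H-TBA. Those groups did not overlap, yet the log2 fold change of -0.41 ± 0.18 did not pass (adjusted p = 0.131).

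Of the untested members, Serpinb5 and Serpinb10 had counts in a single group and more than 3 counts there. Serpinb5, the epithelial serpin maspin, had 7 counts over H-TBA and 0 over L-TBA. Against a floor of 3 counts over the L-TBA group this is a ratio of 1.67. Serpinb10 had 8 counts over L-TBA and 0 over H-TBA, a ratio of 3.72 in favour of L-TBA against the same floor over H-TBA. Both ratios take the observed counts as exact, so they are not lower limits of the difference. Both genes were seen after the fact at the limit of detection, and Serpinb10 overlaps Serpinb2 on the same strand. Serpina5, the protein C inhibitor, had 14 counts over L-TBA and 30 over H-TBA, Serpinb6c 12 and 29, and Serpinb1b 7 and 13. Fewer counts fell on Serpina9, Serpinb1c, Serpinb2, Serpinb7, Serpinb9b to Serpinb9g, Serpinb12, Serpinb13 and Serpine3. No count was found for Serpina16, Serpina1f, Serpinb11, Serpinb3a to Serpinb3d, Serpinb6d, Serpinb6e, Serpini2 and Serpinb1-ps1.

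For the 9 called members, the L-TBA library nearest to the H-TBA mean was L-TBA 3 in 5 cases, L-TBA 1 in 4 and L-TBA 2 in 0, on the scale of log2(CPM + 0.5). Among all called genes these shares were 30.7%, 37.9% and 31.3%. H-TBA 1 was the H-TBA library nearest to L-TBA for 6 of the 9 members and for 63.6% of all called genes.

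**Figure D5:**
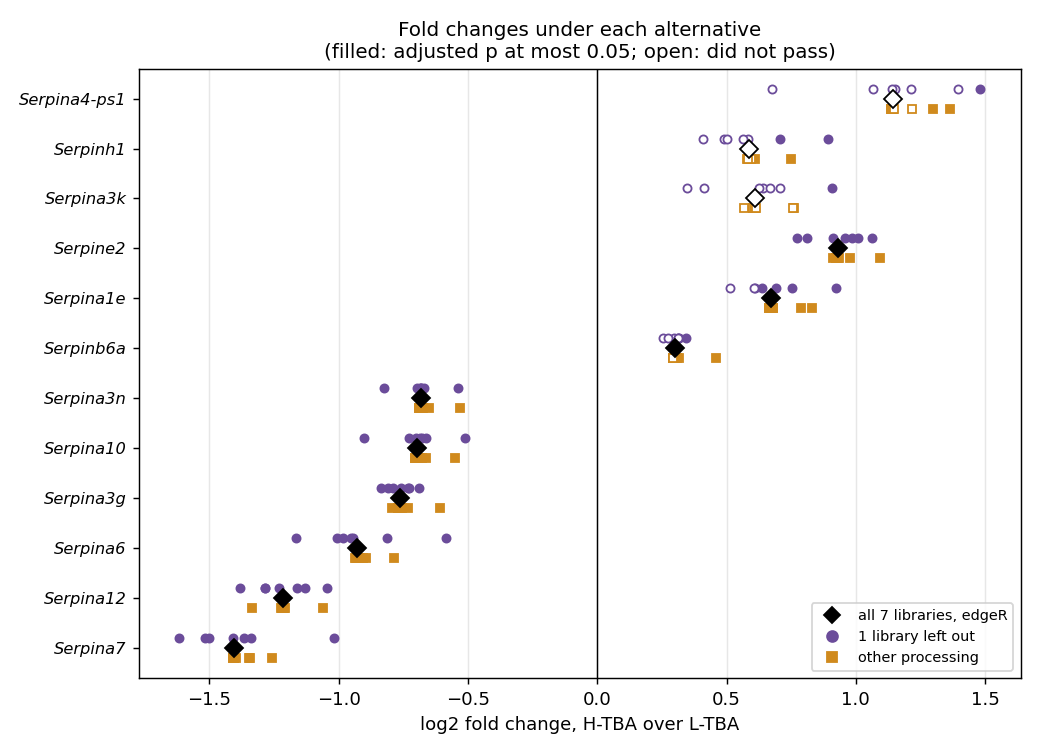
log2 fold change (x axis) of the 9 called serpin genes and of 3 that did not pass (y axis) in the edgeR fit to all 7 libraries (diamonds), with 1 library left out (circles) and under other processing (squares), filled where the adjusted p was at most 0.05. The 6 genes that fell and Serpine2 stay filled throughout, whereas Serpina1e and Serpinb6a have open symbols for some alternatives.

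The proteases that serpins control were counted by cascade, with no test between the lists. Over all tested genes 13.1% rose and 10.7% fell, with a median log2 fold change of 0.00. None of the 7 coagulation proteases passed edgeR's test, with a median of -0.10, while 1 had an unadjusted p under 0.05. That was thrombin's gene F2 (-0.27 ± 0.09, adjusted p = 0.065), which passed by DESeq2, by limma-voom and without H-TBA replicate 1 (adjusted p = 0.00258, 0.0273 and 0.0365; the highest of any alternative was 0.306). F9 and F11 were at -0.27 ± 0.15 and -0.20 ± 0.10, and F9 passed without H-TBA replicate 1 (-0.41, adjusted p = 0.0235, within 0.0235 to 0.472). In the complement list, the targets of Serping1, 4 of 5 genes fell and 0 rose, at a median of -0.48. C1s1 and C1s2, which encode the C1s protease, and Masp2 of the lectin pathway fell by 0.59, 0.57 and 0.48 on the log2 scale (adjusted p = 0.00403, 0.000688 and 0.00346).

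Among fibrinolytic, kinin and membrane proteases 4 of 9 rose and 1 fell. Plat, the tissue plasminogen activator inhibited by neuroserpin, went up from 7.42 ± 1.01 CPM in L-TBA to 18.3 ± 4.01 in H-TBA, or by 1.30 ± 0.19 on the log2 scale (adjusted p = 0.000807). The urokinase gene Plau and the plasminogen gene Plg were at -0.05 ± 0.27 and -0.15 ± 0.11 and did not pass, with directions that turned with library totals. St14, the epithelial protease matriptase, rose from 7.98 ± 1.36 to 33.3 ± 9.77 CPM (2.06 ± 0.23), and Hgfac, the activator of hepatocyte growth factor, fell by 0.45. Of the inhibitors of another structure, Spint1, which blocks matriptase, rose by 2.08 ± 0.29 to 23.8 ± 7.74 CPM, beside Spint2 and Itih2 at 0.46 and 0.38. In that list, which also holds angiotensinogen (Agt, a serpin by fold, -0.17 ± 0.10, adjusted p = 0.232), 3 of 15 rose and 1 fell. Itih2 did not pass without H-TBA replicate 4 or any 1 L-TBA library (adjusted p between 0.0512 and 0.0816).

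Of the cathepsins 1 of 5 rose and 1 fell: Ctsk rose by 1.17 and Ctsb fell by 0.38, and Ctsb did not pass with library totals or when H-TBA replicate 2 or L-TBA replicate 1 or 2 was left out (adjusted p between 0.0509 and 0.0824). Ctsh was at -0.22 ± 0.09 (adjusted p = 0.0835), and passed by DESeq2 and limma-voom. Granule proteases of leukocytes were scarce: 2 of 11 genes were tested, Prtn3 fell by 1.13 to 0.857 ± 0.335 CPM, and Mmp9 did not pass (-0.58 ± 0.48). The Prtn3 call (adjusted p = 0.0455) did not hold by DESeq2, with library totals or when any 1 of H-TBA replicates 3 and 4 and L-TBA replicates 1 and 2 was missing (adjusted p between 0.062 and 0.187). Among cofactors and clearance receptors 3 of 13 rose and 1 fell. Sdc1, Hspg2 and Sort1, which encode a heparan sulfate carrier, the matrix proteoglycan perlecan and a sorting receptor, rose by 0.62, 1.28 and 0.52. Lrp1, the main receptor that clears serpin and protease complexes, stood at -0.07 ± 0.10 without a call (adjusted p = 0.666), and its direction turned with library totals.

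Genes of the acute phase other than serpins had 11 lower and 0 higher of 20, at a median of -0.57. The summed level of the list was 26387 to 41265 CPM in L-TBA and 24981 to 28345 CPM in H-TBA, so the groups overlapped. Apcs, Saa4 and Orm3 fell by 1.52, 1.34 and 1.21 (adjusted p = 9.55e-05, 0.000311 and 0.000729). This was the direction of Serpina3n and not that of Serpina1e, which rose by 0.67. Of 19 regulators of liver serpin transcription 2 rose and 1 fell, which is 15.8% called against 23.9% of all tested genes. Smad3, which carries TGF-beta signals, rose by 0.47, Stat5a of growth hormone signalling fell by 0.58, and Cebpd was at 0.79 ± 0.26 with an adjusted p of 0.0499 that did not hold in 9 of 15 alternatives, among them each that dropped replicate 1, 2 or 4 of H-TBA or replicate 1 or 3 of L-TBA.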

How the data were processed

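Bulk RNA sequencing of 7 liver libraries was analysed as raw counts per Ensembl gene, which the authors deposited without normalization. TopHat2 2.0.11, CASAVA, DESeq2 1.18.1 and the genome build mm9 appear in the submitters' processing notes with no role attached. How reads were assigned to genes, and whether strand was used, is not given in the sources used here, so overlapping or duplicated genes may share counts. Symbols came from a GENCODE table (32897 of 37620 genes matched). No coordinates are given for the counts because the reference (GRCm38) is another build.

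Genes were filtered with filterByExpr (minimum count 10, minimum total 15) and scaled by TMM. The test of H-TBA against L-TBA used edgeR 4.0.16 in R 4.3.3 (quasi-likelihood test, group only, Benjamini-Hochberg over all tested genes, threshold 0.05). Standard errors derive from the fold change and the F statistic. Levels are TMM-scaled CPM, mean ± SD. Lengths are those of the principal GENCODE M21 transcript. Depth per library was between 9996990 and 12152613 counts, and libraries of a group differed by a chi-square of at least 5.66 times its degrees of freedom, above sampling noise. Fits were tested on simulated data.

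The members, gene lists and naming rule (every tested member, the best-ranked list members and a few fixed genes) were chosen with earlier results of these data known. A member that the rule selects is counted in the totals but not reported here. Alternatives were other tests (DESeq2 1.42.0; limma-voom with quality weights, limma 3.58.1), other scalings (library totals; size factors of DESeq2; TMM with the top 20 genes by count removed), other filters (none; minimum count 30), a block for the replicate number, and each library left out. Figures were drawn with matplotlib 3.10.9.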

Additional observations from a re-analysis of the deposited data

Results flagged for a closer look

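In 3 of the 34 tested members H-TBA 1 stood apart from the other H-TBA libraries by Dixon's test at its 95% critical value. Serpina3e-ps was at 46.0 CPM in H-TBA 1 and between 29.5 and 30.5 CPM in the other H-TBA libraries. Serpini1 was at 2.43 CPM there against 1.46 to 1.55 CPM, and Serpina11 at 33.2 CPM against 28.5 to 29.2 CPM. Chance flags about 1 in 20 groups, and 5.10% of all tested genes passed the same value in H-TBA.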

How the results depend on the processing

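The 6 falls (Serpina3g, Serpina3n, Serpina6, Serpina7, Serpina10, Serpina12) and the rise of Serpine2 kept their direction and call under all 15 alternatives. With library totals 3117 genes were higher and 832 lower, and 10 members were higher. DESeq2 and limma-voom each gave 5 higher members, and no filter gave 6 higher and 8 lower. Leaving out each library gave 1470 to 2429 higher and 1035 to 2123 lower genes, and 1 to 5 higher and 6 to 7 lower members. The 1 came from omitting H-TBA replicate 2, or equally L-TBA replicate 2, and the 5 from omitting H-TBA replicate 1, or equally L-TBA replicate 3. Replicate numbers did not pair the libraries: deviations of same-numbered libraries correlated at -0.11, -0.08 and -0.10. With the replicate block 1166 genes were higher and 754 lower, and 2 members were higher and 6 lower. The block ended the calls of Serpinb6a, Proz, Ripk1, Prtn3, Ctsb, Sort1, Cebpd, Col4a2, Spint2 and Itih2.

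Directions of genes near 0 turned. With library totals Serpina1b was at 0.023, Serpina3c at 0.088, Serpina3f at 0.11, Serping1 at 0.088, Serpinc1 at 0.0030, Lrp1 at 0.085, Plau at 0.12 and Plg at 0.0059. With limma-voom Serpina1d was at -0.0012, Serpina3m at -0.046 and Serpinb1a at 0.016. With the replicate block Serpina3c was at 0.020 and Serpina3f at 0.00082. Leaving out 1 library took Serpina1d to between -0.057 and 0.091, Serpina3c to between -0.21 and 0.031, Serpina3f to between -0.17 and 0.046, Serpina3m to between -0.13 and 0.14, Serpinb1a to between -0.57 and 0.12, Serping1 to between -0.14 and 0.0032, Serpind1 to between -0.0026 and 0.12 and Plau to between -0.23 and 0.31. The cause was not tested. The 23 members with counts but no test in the main fit had few counts, which limits what can be detected at this depth. Without the filter they were fitted too, and the 8 lower members of that fit include a member of these 23.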
